A study of Mus musculus with 4 samples.

Results

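The FOS and JUN family was followed in Mnk3 cells, a mouse cell line with features of group 3 innate lymphoid cells (ILC3), by taking the 8 genes Fos, Fosb, Fosl1, Fosl2, Jun, Junb, Jund and Atf3 by name from the 41388 genes in the count tables. All 8 were listed, and all 8 passed the filter on low counts that left 13838 genes for testing. IL-1b and IL-23, each at 10 ng/ml, were given to Mnk3 cells for about 16 h in 2 libraries (stimulated 1 and 2), and Mnk3 cells kept untreated for the same time gave the other 2 (control 1 and 2). All 4 libraries were made from ribosome-depleted total RNA of the same line, with no genetic change named in the labels. In each group the library numbered 1 is the one whose title ends in rep1, and the library numbered 2 has no number in its title. The labels name no separate cultures, and the p-values therefore reflect only how far these libraries of a group lie apart, which could be technical spread.

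FOS and JUN proteins are basic leucine zipper (bZIP) transcription factors that bind DNA as pairs, together called AP-1. JUN proteins can pair with each other, whereas FOS proteins need a JUN or another bZIP partner to bind. Several of the genes are classic early targets of MAP kinase signalling, which cytokine receptors can switch on, and Fos and Fosb transcripts typically come and go within the early phase of a stimulus. In IL-17-producing T cells, JUNB with BATF is known to sit on the regulatory elements of cytokine genes, and FOSL2 is known to modulate that programme.

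Summed gene counts were 26723058 and 23047723 in stimulated 1 and 2 and 29078765 and 28516816 in control 1 and 2. All 8 ILC3 markers examined were detected in every library, with summed levels of 1720 and 1730 CPM in the stimulated libraries and 3360 to 3600 CPM in the controls. Markers of T cells summed to 11.6 to 15.7 CPM in stimulated libraries and 10.9 to 19.7 CPM in controls, nearly all of it Cd3d. Summed B cell, stromal and epithelial markers lay at 2.06 CPM or less in stimulated libraries and 8.57 CPM or less in controls. Of the 5 myeloid markers, Lyz2 and Cd14 were at 0 counts in all 4 libraries, and the sum was 2.22 and 9.37 CPM in stimulated libraries against 0.962 and 2.12 CPM in controls, where the stimulated values were mostly Adgre1. The part of these marker levels in the changes of the FOS and JUN genes was not tested. In bulk RNA, fewer cells that express a gene and less of its RNA per cell cannot be told apart.

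By the coordinates of the count tables, Jun lies on chromosome 4 from 95049034 to 95052222 (minus strand), Junb on chromosome 8 from 84976909 to 84978748 (minus), and Jund on the same chromosome from 70697739 to 70700616 (plus). Each of these 3 JUN genes is listed as 1 exon block. Fos lies on chromosome 12 from 85473890 to 85477273 (plus), Fosb on chromosome 7 from 19302721 to 19310045 (minus), Fosl1 on chromosome 19 from 5447703 to 5455945 (plus), Fosl2 on chromosome 5 from 32136472 to 32157831 (plus) and Atf3 on chromosome 1 from 191170296 to 191183340 (minus). These 5 genes are listed with 4 exon blocks each. Only Fos and Jun have the same start and end in GENCODE M21 (GRCm38). The antisense gene Junos overlaps Jun over 689 bases and had 31 and 28 counts in stimulated libraries and 29 and 20 in controls. The gene Gm11175 overlaps Jund on the opposite strand and had 0 counts in all 4 libraries. Use of strand in the counting was not stated in the sources at hand, so reads in those overlaps cannot be assigned to a strand.

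The DNA just upstream of the start is shown for 3 genes that the results turn on: Jun and Junb, which were higher after stimulation, and Fos, which did not pass. Each line gives the 120 bases before the RefSeq start on GRCm38.p6, read in the direction of the gene, with capitals marking the matches described next. The windows are chr4:95052223-95052342 (minus strand), chr8:84978749-84978868 (minus strand) and chr12:85473770-85473889 (plus strand).
Jun: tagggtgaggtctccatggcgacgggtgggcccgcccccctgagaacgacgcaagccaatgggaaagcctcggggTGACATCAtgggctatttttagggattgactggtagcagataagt
Junb: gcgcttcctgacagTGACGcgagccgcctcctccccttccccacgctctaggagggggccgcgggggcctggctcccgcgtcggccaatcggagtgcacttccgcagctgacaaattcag
Fos: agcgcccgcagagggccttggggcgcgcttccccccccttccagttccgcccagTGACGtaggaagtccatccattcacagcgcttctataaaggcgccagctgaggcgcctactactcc
The capitals in Jun are TGACATCA, the variant AP-1 and CRE site of its promoter, 45 to 38 bases before the start. The capitals in Junb and Fos are TGACG, the core of the cyclic AMP response element (CRE), which begins 106 bases before the start of Junb and 66 bases before that of Fos.

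Promoter windows of 250 bases before the start were at hand from RefSeq for 7 of the 8 genes, Fosl1 being the other. On both strands, the AP-1 site TGANTCA, the full CRE TGACGTCA, an NF-kB motif, the STAT letters TTCNNNGAA and the CArG box of SRF were in 0 of these 7 windows. Over all 32851 promoters of the table they were in 6.75%, 1.55%, 1.41%, 7.02% and 1.47%. TGACATCA was in the Jun window and in 2.93% of all promoters. TGACG, which was chosen after the sequences had been seen and is contained in the full CRE, was in 4 of the 7 windows (Fos, Fosb, Junb and Atf3) and in 17.8% of all promoters. In Atf3, which lies on the minus strand, it lies 7 to 3 bases before the RefSeq start and reads on the strand opposite to the gene. Those bases lie within Atf3 as the count tables list it, with its start at 191183340. These are matches of letters, and elements farther upstream or within the genes were not examined. Windows with TGACG held 58.4% (Fos), 68.8% (Fosb), 66.4% (Junb) and 65.2% (Atf3) G or C, against a median of 52.4% over all promoters. Windows without it held 64.4% (Fosl2), 61.2% (Jun) and 47.6% (Jund). The part of base composition in the shares of promoters with TGACG was not tested. The listed start of Jund lies upstream of its start in GENCODE M21 (70698949), so its window may not be the sequence next to the start used in these cells. The same limit holds for Fosl2 and Atf3, whose starts in GENCODE M21 (32135801 and 191218039) lie upstream of their windows.

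After 16 h of IL-1b and IL-23, 5 of the 8 genes were higher (Fosl2, Jun, Junb, Jund and Atf3), 1 was lower (Fosb) and 2 did not pass (Fos and Fosl1), by edgeR's quasi-likelihood test at a Benjamini-Hochberg adjusted p under 0.05 over all genes tested. Over all 13838 genes tested, 35.8% passed, 17.5% higher and 18.3% lower. The median log2 fold change was 1.17 over the 8 genes and -0.02 over all genes. The genes had been proposed with results of these data known, so the count is a description and carries no test. Levels below are counts scaled for library size by TMM (CPM), with means ± SD over the 2 libraries of a group, and each change is on the log2 scale, stimulated over control, ± SE.

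**Figure D1:**
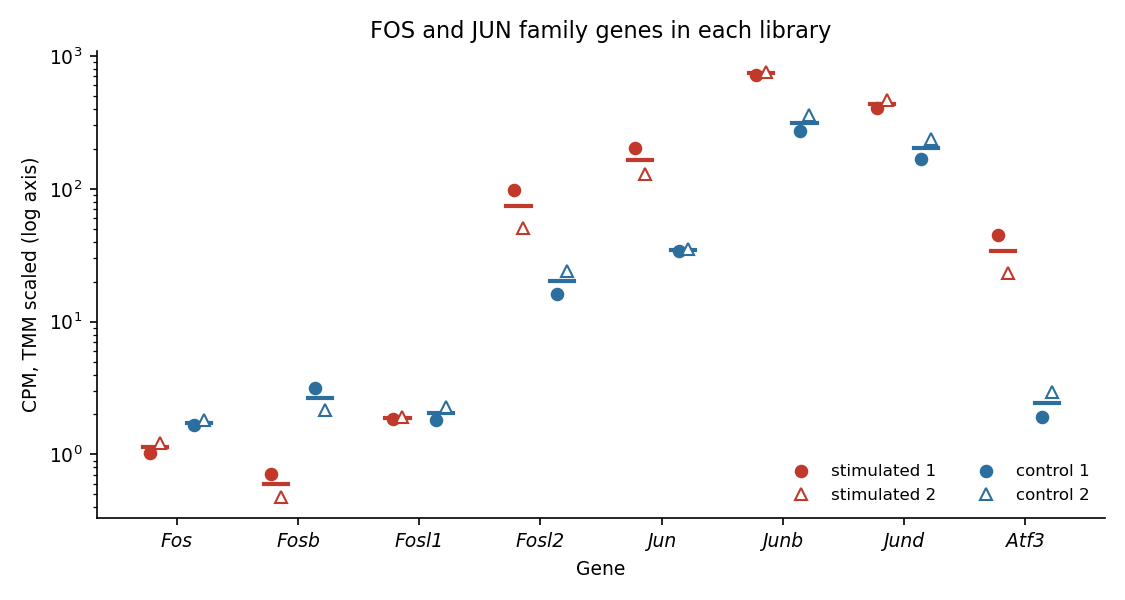
TMM-scaled CPM (log axis) of the 8 FOS and JUN family genes in each library. Red marks are stimulated libraries and blue marks controls, circles are library 1 and open triangles library 2, and bars are group means. Groups lie apart for every gene except Fosl1, and Junb and Jund have the highest CPM.

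Among the JUN genes, whose proteins are the usual partners of FOS proteins, Jun had the largest fitted change. Jun had 201 and 130 CPM in stimulated 1 and 2 (5075 and 2966 counts), against 33.9 and 35.4 CPM in control 1 and 2 (1022 and 1037 counts). Both stimulated libraries lay well above controls that nearly coincided. The change was 2.25 ± 0.22, a fold of 4.77 (edgeR adjusted p = 0.000891). Jun ranked 271 of 13838 genes by fold change.

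Junb, which pairs with BATF in lymphocytes, was the most abundant of the 8 genes. It had 724 and 757 CPM in the stimulated libraries (18275 and 17296 counts), against 271 and 359 CPM in the controls (8169 and 10501 counts). The stimulated libraries were close to each other and above both controls. Junb rose by 1.23 ± 0.18, or 2.35-fold (edgeR adjusted p = 0.00296).

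Jund, the JUN gene usually described as steadily expressed, also rose. It had 408 and 464 CPM in the stimulated libraries, against 167 and 237 CPM in the controls. The groups did not overlap, and in both groups library 2 was the higher. The change was 1.11 ± 0.20, a fold of 2.16 (edgeR adjusted p = 0.00646). The difference between the folds of Jun, Junb and Jund was not tested. Non-overlap of the groups is common in these data, with both stimulated libraries above both controls for 34.4% of all genes tested and below both for 36.3%.

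Of the FOS genes, only Fosl2 was higher. Fosl2 encodes FRA-2, which lacks the strong activation domain of FOS. It had 97.3 and 50.6 CPM in the stimulated libraries (2458 and 1155 counts), against 16.2 and 24.1 CPM in the controls (488 and 707 counts). All stimulated values were above all controls, with a wide gap between the stimulated libraries. The change was 1.87 ± 0.38, a fold of 3.67 (edgeR adjusted p = 0.0181). The call ended without control 1 (change 1.61, edgeR adjusted p = 0.13) and without control 2 (change 2.19, edgeR adjusted p = 0.076), while the direction stayed.

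Fosb, an early response gene that encodes a FOS protein with its own activation domain, fell. It had 0.713 and 0.482 CPM in the stimulated libraries, against 3.15 and 2.15 CPM in the controls. These are 18 and 11 counts in stimulated cells and 95 and 63 in controls. The exact 95% counting intervals were 0.422 to 1.13 and 0.24 to 0.862 CPM in the stimulated libraries and 2.55 to 3.85 and 1.65 to 2.75 CPM in the controls, so no stimulated interval met a control interval. Intervals cover counting error only. The log2 change was -2.14 ± 0.38, and the control level was 4.40-fold that of stimulated cells (edgeR adjusted p = 0.00619).

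Fos, the founding gene of the family, was scarce in both groups. It had 1.03 and 1.23 CPM in the stimulated libraries (26 and 28 counts), against 1.66 and 1.81 CPM in the controls (50 and 53 counts). Both stimulated values were below both controls, but the change of -0.62 ± 0.31 did not pass (edgeR adjusted p = 0.169). Counting intervals overlapped, at 0.672 to 1.51 and 0.814 to 1.77 CPM in stimulated libraries and 1.23 to 2.19 and 1.36 to 2.37 CPM in controls.

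Fosl1, which encodes FRA-1, had 1.86 and 1.93 CPM in the stimulated libraries (47 and 44 counts), against 1.82 and 2.29 CPM in the controls (55 and 67 counts). The groups overlapped. The change was -0.12 ± 0.29 (edgeR adjusted p = 0.782).

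Atf3, a stress-inducible bZIP gene whose protein pairs with JUN proteins and is known to repress inflammatory genes in macrophages, had the largest change of the 8. It had 44.8 and 23.3 CPM in the stimulated libraries (1131 and 532 counts), against 1.92 and 2.94 CPM in the controls (58 and 86 counts). Every stimulated value exceeded every control value several times over. The change was 3.81 ± 0.40, a fold of 14.0 (edgeR adjusted p = 0.00175), and Atf3 ranked 123 of 13838 genes by fold change.

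**Figure D2:**
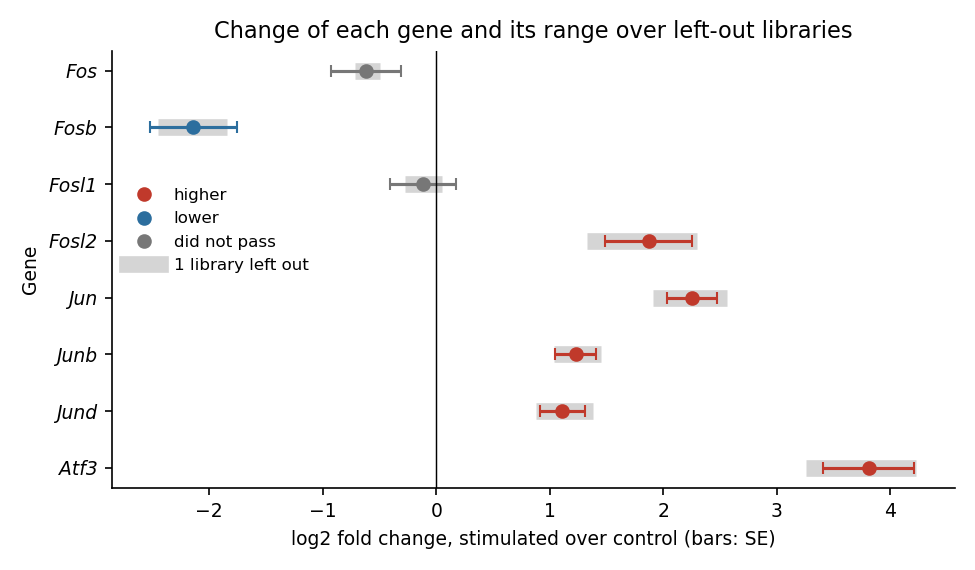
Log2 fold change of each gene, stimulated over control, with its SE (bars), and in grey the range of the change when any 1 of the 4 libraries was left out. Atf3 had 3.81 with a range of 3.26 to 4.23, Jun 2.25 with 1.91 to 2.56 and Fosb -2.14 with -2.45 to -1.84, and the range of Fosl1 (-0.28 to 0.05) spans 0.

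The higher genes fell apart in how evenly the stimulated libraries shared the increase. The CPM of stimulated 1 over stimulated 2 was 1.92 for Fosl2, 1.92 for Atf3 and 1.55 for Jun, against 0.956 for Junb and 0.879 for Jund. Over the 9938 tested genes with a mean of at least 5 CPM, 7.3% differed by 1.5-fold or more between the stimulated libraries, 3.5% with stimulated 1 higher. The same ratio of control 1 over control 2 was 0.67 for Fosl2, 0.655 for Atf3 and 0.957 for Jun, with 0.756 for Junb and 0.706 for Jund. Over the same genes, 7.5% differed by 1.5-fold or more between the controls. Fosl2 and Atf3 were thus higher in library 1 among stimulated cells and higher in library 2 among controls. For Atf3 the controls had only 58 and 86 counts, and their counting intervals overlapped (1.46 to 2.49 and 2.35 to 3.63 CPM).

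To compare genes with each other, levels were also taken per length, as CPM per kb of the length listed in the count tables. Junb was first with 402 ± 12.9 CPM per kb in stimulated cells and 171 ± 33.7 in controls. It ranked 96 and 69 of 13838 genes in stimulated 1 and 2, and 277 and 160 in control 1 and 2. Jund was second, with 152 ± 13.8 CPM per kb in stimulated cells and 70.2 ± 17.1 in controls. Jun was next, with 51.9 ± 15.8 CPM per kb in stimulated cells and 10.9 ± 0.335 in controls. After Jun came Atf3 (17.2 ± 7.66 CPM per kb) and Fosl2 (12.6 ± 5.65) in stimulated cells, and Atf3 was the higher in both libraries, with 22.6 and 11.7 CPM per kb against 16.6 and 8.64 for Fosl2. In controls the order of that pair was the other way, with Atf3 at 1.23 ± 0.361 and Fosl2 at 3.45 ± 0.961 CPM per kb. Fosl1 (1.11 ± 0.0271 CPM per kb), Fos (0.479 ± 0.059) and Fosb (0.159 ± 0.0436) came last in stimulated cells. In controls these 3 genes had 1.20 ± 0.192, 0.738 ± 0.0455 and 0.707 ± 0.189 CPM per kb, and of Fos and Fosb the higher was Fosb in control 1 (0.84 against 0.705 CPM per kb) and Fos in control 2 (0.77 against 0.574). The order of the 8 genes was the same with exon lengths from GENCODE M21, which are longer for Fosl2 (9680 against 5855 bases listed) and shorter for Jund (1668 against 2878).

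Summed over each family, JUN transcripts far outnumbered FOS transcripts in both groups. The 3 JUN genes summed to 598 and 614 CPM per kb in stimulated 1 and 2, against 216 and 288 in control 1 and 2. The 4 FOS genes summed to 18.3 and 10.4 CPM per kb in the stimulated libraries, against 5.38 and 6.81 in the controls. JUN over FOS was 32.6 and 58.9 in the stimulated libraries and 40.2 and 42.4 in the controls, so the stimulated values lay on either side of both controls.

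Fosl2 took a larger part of the FOS transcripts in stimulated libraries than in controls. It made up 90.6% and 82.9% of the summed FOS level in stimulated 1 and 2, against 51.4% and 60.6% in control 1 and 2. Fosl1 made up 5.94% and 10.8% in stimulated libraries, against 19.9% and 19.7% in controls. Fos made up 2.39% and 5.0% in stimulated libraries, against 13.1% and 11.3% in controls, and Fosb 1.04% and 1.23% against 15.6% and 8.43%. For all 4 genes the shares in stimulated libraries did not overlap those in controls. The shares of a library sum to a fixed whole, so a larger share of Fosl2 leaves smaller shares for the others. These are therefore not separate results, and the levels of Fos and Fosl1 themselves did not pass.

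Within the JUN genes, Junb led in every library. Junb made up 65.7% and 67.1% of the summed JUN level in the stimulated libraries, against 68.2% and 67.6% in the controls. Jund made up 23.7% and 26.3% in stimulated libraries, against 26.9% and 28.6% in controls. Jun made up 10.5% and 6.64% in stimulated libraries, against 4.92% and 3.85% in controls. Shares within a library do not depend on how libraries are scaled to each other. With 2 libraries against 2, an exact two-sided permutation test cannot give a p under 0.33, so the shares are a description.

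**Figure D3:**
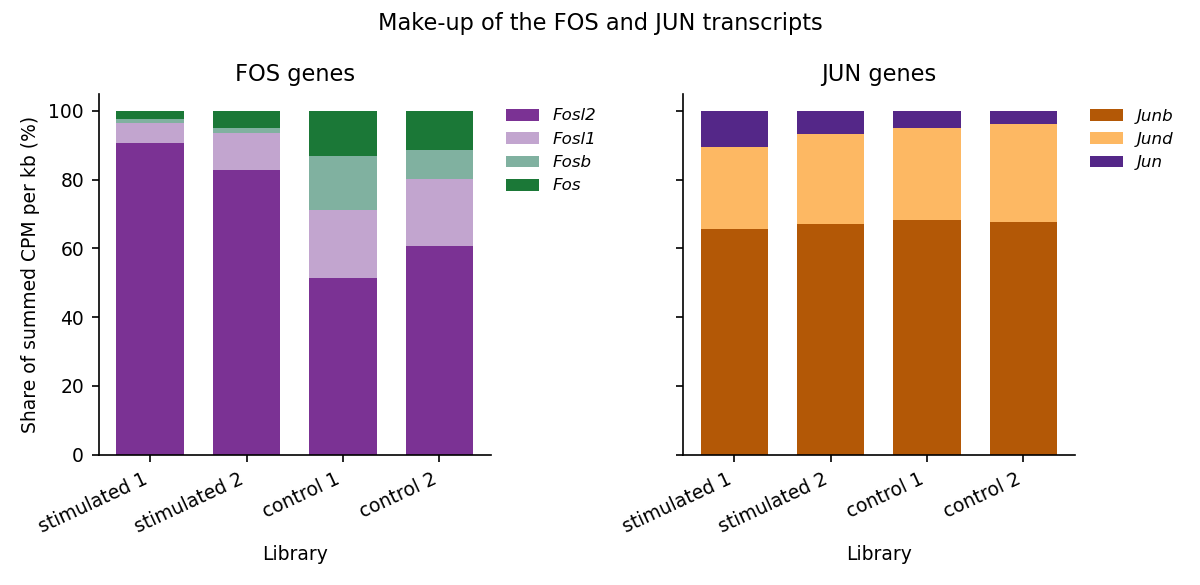
Share (%) of each gene in the summed CPM per kb of the FOS genes (left) and the JUN genes (right), in each library. Fosl2 takes 82.9% to 90.6% of the FOS level in stimulated libraries and 51.4% to 60.6% in controls, while Junb takes 65.7% to 68.2% of the JUN level in all 4.

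Other bZIP genes, whose proteins can pair with or compete with FOS and JUN, moved in both directions. Of 24 tested, 9 were higher (37.5%) and 7 lower (29.2%), with a median log2 change of 0.36. The shares over all genes tested were 17.5% higher and 18.3% lower. Batf, the AP-1 partner of JUN proteins in lymphocytes, had 83.3 and 66.3 CPM in stimulated libraries and 15.3 and 12.8 CPM in controls, and rose by 2.41 ± 0.18 (edgeR adjusted p = 0.000381). Atf4, the effector of the integrated stress response, rose by 1.61 ± 0.15 (edgeR adjusted p = 0.000631). Maff, a small MAF protein gene, had 40.0 and 46.6 CPM in stimulated libraries and 131 and 153 CPM in controls, a change of -1.71 ± 0.16 (edgeR adjusted p = 0.000638). Cebpg at 0.26 ± 0.21 and Mafk at -0.59 ± 0.25 did not pass.

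Of 33 tested genes of the MAP kinase cascades that lead to AP-1, 2 were higher (6.1%), 10 were lower (30.3%) and 21 did not pass, with a median of -0.19. Over all genes tested, 17.5% were higher and 18.3% lower. There 8888 of 13838 did not pass, a share close to that of this list. Without stimulated 1 the lower genes numbered 6, and without stimulated 2 they numbered 5, while fewer than 2 were higher without stimulated 1 or without either control. The genes with the smallest adjusted p were all lower: Map3k5, a stress-activated kinase upstream of JNK and p38, by -1.38 ± 0.22, Map2k6, which activates p38, by -1.28 ± 0.23, and Rps6ka5, which encodes the nuclear kinase MSK1, by -1.25 ± 0.26. Tab2, an adaptor of the kinase TAK1 in IL-1 signalling, had 251 and 300 CPM in stimulated libraries and 253 and 335 CPM in controls and did not pass (-0.09 ± 0.19).

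Of 17 tested factors that act on FOS and JUN genes through SRF or turn over their proteins, 1 was higher (5.9%), 6 were lower (35.3%) and 10 did not pass (median -0.09), beside 17.5% higher and 18.3% lower over all genes. Without stimulated 1 the lower genes numbered 3, and without stimulated 2 they numbered 2. Elk4, a ternary complex factor that works with SRF, changed by -0.93 ± 0.13, and the SRF coactivator Mrtfb by -0.78 ± 0.15. Cops5, which encodes the COP9 subunit known as JAB1 for its binding to JUN, rose by 0.85 ± 0.16. The casein kinase 2 subunits Csnk2b (0.39 ± 0.16) and Csnk2a1 (0.30 ± 0.14) did not pass.

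Other immediate early genes were split, as Fosb and Jun were. Of 22 tested, 8 were higher (36.4%) and 6 lower (27.3%), with a median of -0.21, beside 17.5% and 18.3% over all genes tested. Both the higher and the lower calls were fewer whichever 1 library was left out. Gadd45b, a stress-response gene, had 252 and 301 CPM in stimulated libraries and 17.2 and 17.8 CPM in controls, a change of 3.98 ± 0.17 (edgeR adjusted p = 0.000134). Ier3 rose by 3.49 ± 0.37 from low levels, with 2.97 and 4.33 CPM in stimulated libraries and 0.332 and 0.307 CPM in controls. Maff, in this list too, was lower as given above. Btg1 (-0.19 ± 0.17) and Csrnp1 (-0.24 ± 0.14) did not pass.

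Genes known as AP-1 targets in other cells did not move one way. Of 21 tested, 7 were higher (33.3%), 4 were lower (19.0%) and 10 did not pass, with a median of 0.24. The shares over all genes tested were 17.5% higher and 18.3% lower. Csf2, which encodes GM-CSF, had 21.2 and 42.0 CPM in stimulated libraries and 1.16 and 1.5 CPM in controls (4.56 ± 0.41). Mmp9, a gelatinase gene, had 1.19 and 1.01 CPM in stimulated libraries and 8.23 and 6.76 CPM in controls (-2.77 ± 0.28), and Spp1, the osteopontin gene, changed by -1.49 ± 0.15. Ezr (-0.30 ± 0.17) and Gja1 (0.28 ± 0.43) did not pass. Leaving out stimulated 1, control 1 or control 2 left 4, 3 and 4 higher genes.

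**Figure D4:**
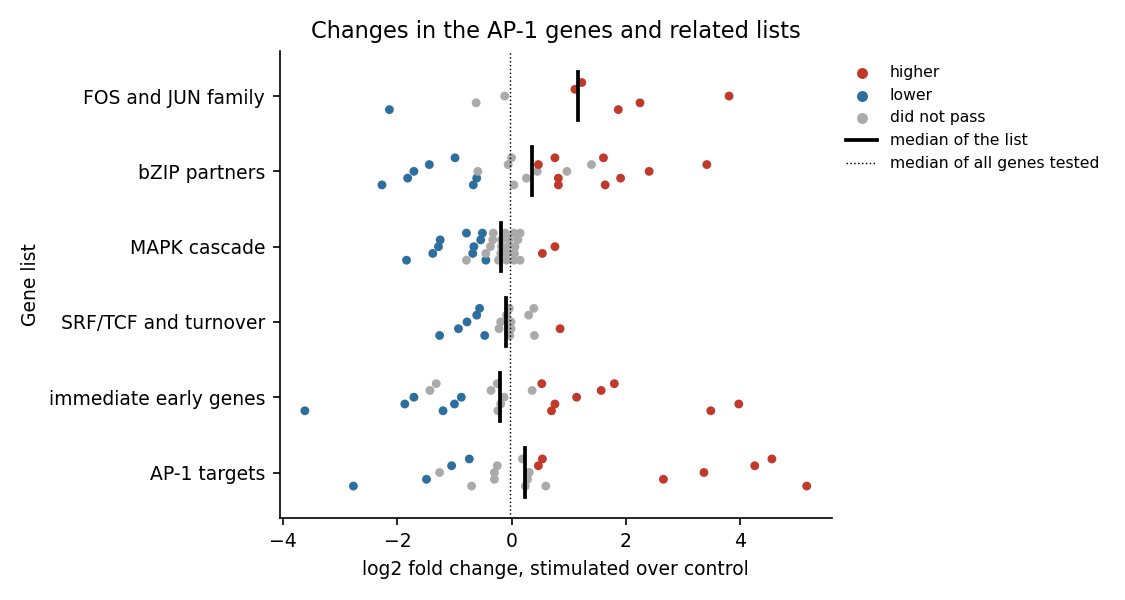
Log2 fold changes, stimulated over control, of the tested genes in each list, with red for higher, blue for lower and grey for genes that did not pass. Black bars are list medians, 1.17 for the FOS and JUN family against -0.21 to 0.36 for the other lists, and the dotted line is the median of all genes tested (-0.02).

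The genes whose levels ran most like those of each member over the 4 libraries were sought among 9461 genes. These had established symbols and a mean of at least 5 CPM. Likeness was the root mean square difference of centred log2 of CPM plus 0.5. The nearest to Junb was Traf1, a TNF receptor adaptor, with a difference of 0.018 and levels of 466 and 491 CPM in stimulated libraries and 178 and 228 CPM in controls. The next was Rsl1d1 (0.024). Those nearest to Jund were Mphosph10 (0.022) and Pnpt1 (0.029). Those nearest to Jun were Gbp2, an interferon-inducible GTPase gene (0.084), and Ktn1 (0.104). Fosl2 and Atf3 had no such close companion, though the difference is not scaled to the size of a change or of a gap between libraries. Those nearest to Fosl2 were Il33 (0.172), with 44.0 and 17.8 CPM in stimulated libraries and 6.90 and 8.13 CPM in controls, and Notch1 (0.197). Those nearest to Atf3 were S1pr1 (0.21) and Hs6st1 (0.211). For Fosb they were Ank (0.036) and Mvb12b (0.044), for Fos Rnf103 (0.013) and Usp53 (0.022), and for Fosl1 Paics (0.011) and Micu2 (0.011). The added 0.5 shrinks differences most at low CPM, as in Fos, Fosb and Fosl1, so their small values overstate the likeness. Fitted changes were -1.51 for Ank and -1.45 for Mvb12b, against -2.14 for Fosb. They were -0.46 for Rnf103 and -0.44 for Usp53, against -0.62 for Fos. With 4 libraries many genes can run alike, and the likeness is a description.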

How the data were processed

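RNA-seq libraries of 2 stimulated and 2 untreated samples of Mnk3 cells were used. The count deposited for each gene is an unnormalised whole number, per the file headers and values. Per the submitters' processing notes, the tools were STAR, Subread and featureCounts. Versions, genome build and use of strand were not stated in the sources used. Symbols came from GENCODE M21, and 40254 of 41388 identifiers matched. Mkl1, Mkl2 and Rfwd2 were matched through RefSeq synonyms.

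Counts were tested with the quasi-likelihood test of edgeR 4.0.16 (limma 3.58.1, R 4.3.3), with filterByExpr, TMM scaling and robust estimation, treatment as the only term, and Benjamini-Hochberg adjustment over 13838 genes. The SE is the absolute change over the square root of F. The common biological coefficient of variation was 18.4%. The script was tested on simulated data. Promoter sequences are from RefSeq (GRCm38.p6).

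The members and the 5 other lists were chosen with earlier results of these data known. Named genes were all members, for each list the 3 called genes of lowest adjusted p and the 2 genes of highest CPM among those not called, and the 2 nearest in pattern to each member (log2 of CPM plus 0.5). Of these, 1 gene is not reported here. Alternatives were 3 other scalings, 2 other filters, DESeq2 1.42.0, limma-voom, no robust estimation, a replicate block, other gene lengths and each library left out.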

Additional observations from a re-analysis of the deposited data

How the results depend on the processing

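All 8 FOS and JUN family genes kept their direction under each of the 9 settings that use all 4 libraries, with Atf3 between 3.71 and 3.83, Jun between 2.16 and 2.28, Junb between 1.14 and 1.25, Jund between 1.02 and 1.13 and Fosb between -2.23 and -2.10. Their calls stayed too, except that of Fosl2 with the replicate block. With 1 library left out the calls of Atf3, Jun, Junb, Jund and Fosb stayed. Fosl2 ranged from 1.33 to 2.30 and its call ended without either control (the cause was not tested), while Fosl1, never called, ranged from -0.28 to 0.05 and turned positive without control 2. The genes called over the whole table numbered 2417 higher and 2533 lower, and 1593 to 2001 higher and 1665 to 2035 lower with 1 library left out. The 116 tested genes of the other lists held 32 lower calls, and 20 to 26 with 1 library left out. The median change of all genes was -0.108 with total-count scaling and -0.016 with TMM.

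The titles share only rep1 or no number between groups, with no statement of a shared batch. Deviations from the group means correlated at 0.49 between same-titled libraries across genes. With the replicate block 3986 genes were higher and 4000 lower, and Fosl2 had 1.82 with an edgeR adjusted p = 0.34. With 4 libraries, 1 residual degree of freedom per gene is left with this block.

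Shares depended on length. With M21 exon lengths the mean share of Fos among FOS genes was 5.75% in stimulated libraries and 17.5% in controls, that of Fosl1 23.8% in controls and that of Fosl2 48.5% in controls. Among JUN genes, Junb had 50.6% in stimulated libraries and 51.0% in controls, and Jund 41.2% in stimulated libraries and 44.9% in controls. With no length the stimulated and control shares were 1.64% and 6.61% for Fos, 2.70% and 7.76% for Fosl1, 94.9% and 75.2% for Fosl2, 12.3% and 6.40% for Jun, 55.2% and 57.1% for Junb and 32.5% and 36.5% for Jund, and Fosb had 0.797% in stimulated libraries. The order of each pair of groups stayed. Depth limits Fos, Fosb and Fosl1, which had 11 to 95 counts per library, and also Atf3 in controls, with 58 and 86 counts.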

Other observations

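Values of some other bZIP and early response genes are given here, all chosen after their values were seen. The C/EBP genes Cebpd and Cebpb, activators of inflammatory genes, rose by 3.42 ± 0.32 (edgeR adjusted p = 0.000916) and 1.64 ± 0.18 (0.00115), and Batf3 by 1.91 ± 0.20 (0.000917). Of the BACH and MAF genes, whose products bind AP-1-like sites, 4 that fell had log2 changes of -2.27 for Bach2 (edgeR adjusted p = 0.0103), -1.82 for Bach1 (0.000912), -1.44 for Maf (0.000974) and -0.99 for Mafg (0.00219). Among early response genes, Egr3 changed by -3.62 ± 0.73, Nr4a3 by -1.87 ± 0.30 and Egr2 by -1.20 ± 0.34. Counts in stimulated and control libraries were 1 and 2 against 33 and 16 for Egr3, and 27 and 21 against 101 and 116 for Nr4a3. Those of Bach2 were 5 and 9 against 37 and 48, so these falls rest on few counts. Nr4a1 rose by 1.14 ± 0.18 (edgeR adjusted p = 0.00374), and Egr1 at -1.43 ± 0.55 did not pass (edgeR adjusted p = 0.0943). The heat shock genes Hspa1a and Hspa1b rose by 1.8 ± 0.37 and 1.57 ± 0.32. Hspa1a had only 35 and 36 counts in stimulated libraries and 12 and 13 in controls. Hspa1a and Hspa1b are near-identical copies, so the split of reads between them is uncertain.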
